A study of Mus musculus with 28 samples.

Results

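The genes described here encode the constitutive proteasome: 14 genes of the 20S core particle and 20 genes assigned to the 19S regulatory particle. They were chosen by name (Psma1 to Psma7, Psmb1 to Psmb7, Psmc1 to Psmc6 and Psmd1 to Psmd14), without the immunoproteasome subunits, and each is represented by its brightest probe set that is assigned to 1 gene. All 34 were measured, among 18193 genes on the array. The arrays compare B-cell lymphomas before and after a DNA-damaging drug that, per the series description, drives them into senescence, a lasting arrest of division. Primary lymphoma cells were taken from lymph nodes of C57BL/6 mice carrying the Emu-myc transgene, in which an immunoglobulin enhancer drives Myc in the B-cell lineage. Freshly isolated cells were transduced with Bcl2 from the MSCVpuro retrovirus, selected in puromycin for 48 h and grown on NIH 3T3 mouse fibroblasts irradiated with 20 Gy. From each of 14 lymphomas, 1 culture was left untreated and 1 was given Adriamycin (ADR, doxorubicin) at 0.05 µg/ml for 5 days. Both groups therefore carry Myc and Bcl2, and both share the feeder layer. The ages of the mice are not given in the sources used here. Each lymphoma is a separate tumour with 1 array per condition, and the change of a gene is its log2 value after ADR minus its log2 value in the untreated culture of the same lymphoma.

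The proteasome degrades proteins that carry ubiquitin chains. Its 20S core is a barrel of alpha and beta rings: the outer alpha rings gate the entrance, and the inner beta rings hold the proteolytic sites. The 19S particle caps the barrel; its base contains ATPases that unfold the substrate and push it into the core, and its lid contains an enzyme that removes the ubiquitin chain. Plasma cells, which make much protein, depend on this machinery, and their tumours are treated with proteasome inhibitors. When proteasome activity falls, the transcription factor Nfe2l1 is activated and raises the subunit genes together.

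The array is a bulk measurement, in which fewer cells of a type and less RNA per cell cannot be told apart. B-cell markers were present throughout: the mean log2 level of 11 of them ranged from 8.995 to 10.16 in untreated cultures and from 7.53 to 10.3 after ADR, with 6 of 11 called lower. Fibroblast markers moved strongly with treatment. The mean of 24 fibroblast genes ranged from 4.60 to 5.49 in untreated cultures and from 5.01 to 9.46 after ADR, 23 of 24 were called higher, and 2 stayed under a mean of 5 in both groups. The rise of that mean ran from -0.10 in lymphoma 1467 to 4.13 in 5560 and 4.45 in 403. Macrophage markers moved as well, with 10 of 15 called higher and list means of 5.17 to 8.502 before and 6.21 to 9.48 after ADR. No T-cell marker of 9 was called by limma (1 at an unadjusted p under 0.05), 3 of them lay under 5 in both groups, and all 14 G2/M genes of the cell cycle were called lower. What part these changes have in the values of the proteasome genes was not tested, apart from the fit on the fibroblast list given below. The ADR array of lymphoma 1570 stood apart in RNA quality, with a 3' minus 5' signal of 0.92 for actin and 0.92 for Gapdh. The ADR array of 6054 was next for Gapdh, at 0.38, with the others at 0.0985 or below.

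The proteasome genes changed little on average, and more of them were called lower than higher in the paired fit. With the fibroblast change as a covariate none was called lower and 2 were called higher. In limma's paired fit with Benjamini-Hochberg adjustment over all genes, 9 of 34 were called lower at an adjusted p under 0.05, where 13.4% of all genes were. Only Psmb3 was called higher, where 15.3% of all genes were. The remaining 24 did not pass the test. The share called lower (26.5%) was near the 25.6% among the 4709 genes with a mean log2 level of at least 8, the range in which the members lie; the share called higher was 2.94% for members and 21.6% for those bright genes. The median change of the 34 was -0.12, against -0.00 for all genes and -0.03 for the bright ones. The median absolute size of the mean changes was 0.16, against 0.13 for all genes and 0.25 for bright ones. No member changed by 2-fold in the mean, and all 34 of the 95% intervals lay within 2-fold in either direction. Of the intervals, 31 lay within 0.5 on the log2 scale (91.2%, against 68.9% of all genes and 55.4% of bright ones). In single lymphomas Psmc4, Psmd6, Psmd13 and Psmd14 changed by more than 2-fold. In every member the untreated and ADR values overlapped. Taking the most variable probe set of each gene instead of the brightest left 3 members called lower (13.9% of all genes were). The zero line depends on scaling: centring each array on its median moved the median change of all genes to -0.10, called 15 members lower (23.1% of all genes were) and none higher (11% of all genes were), and turned the split of all calls from 2790 higher and 2435 lower to 2007 higher and 4207 lower.

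**Figure D1:**
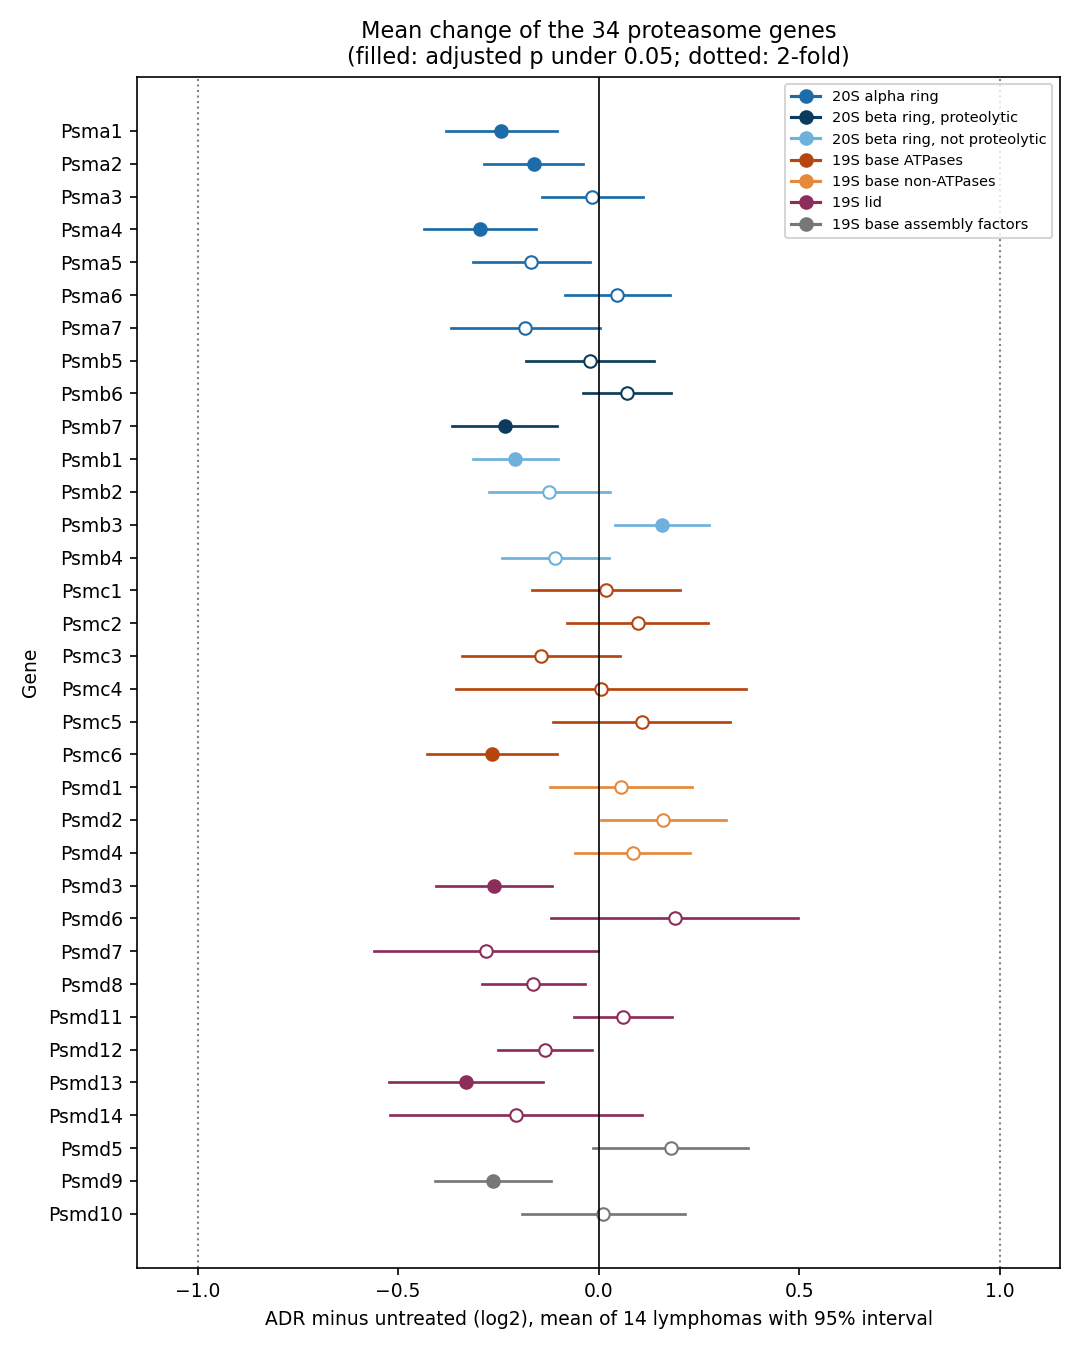
Mean ADR minus untreated change (log2, horizontal axis) of each proteasome gene over 14 lymphomas, with bars for the 95% interval and colours for the role; filled points passed an adjusted p of 0.05. The 9 filled points left of 0 and Psmb3 on the right all lie well inside the dotted 2-fold lines, and the lid genes Psmd6, Psmd7 and Psmd14 and the ATPase Psmc4 have the widest bars.

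Promoter sequences were available from the RefSeq table (build GRCm38.p6) for 28 of the 34 genes, in 30 windows because Psmc2 and Psma6 have several starts. Psmb1, Psmb2, Psmb7, Psmc3, Psmd3 and Psmd7 were not analysed here. Windows of 250 bases before the start were searched on both strands for CCGGAAG (the core bound by ETS factors), TGACNNNGC (the antioxidant response core, bound by Nfe2l1 and Nfe2l2 with small Maf proteins), CCAAT (bound by NF-Y) and CACGTG (the E-box bound by Myc with Max). CCGGAAG was found in 10 of 30 member windows (33.3%), against 6.91% of the 32851 windows in the table and 16.5% of the 4980 windows of bright genes. It lay in 9 of 18 windows of 19S genes and in 1 of 12 windows of 20S genes. TGACNNNGC was in 5 of 30 windows (16.7%, against 10.2% of all windows and 12.2% of those of bright genes), CCAAT in 11 (36.7%, against 33.8% and 35.8%) and CACGTG in 2 (6.67%, against 6.02% and 9.84%). The sequences below are the 100 bases before the start, read 5′ to 3′ on the gene's strand, with matches in capitals. A match on the opposite strand reads CTTCCGG for the ETS core. The first 6 are 19S genes with an ETS core near the start, from -11 in Psmd11 to -45 in Psmd6 in these sequences (first base of the match, counted from the gene's start). Psmc6 and the other window of Psmc2, not printed, hold it further away, at -100 and -84.
Psmc1 (chr12:100110102-100110201, plus strand): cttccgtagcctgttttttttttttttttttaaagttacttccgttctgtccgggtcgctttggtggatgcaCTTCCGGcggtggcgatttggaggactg
Psmc2 (chr5:21786647-21786746, plus strand): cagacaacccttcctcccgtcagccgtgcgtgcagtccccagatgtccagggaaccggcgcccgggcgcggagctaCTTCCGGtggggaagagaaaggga
Psmd2 (chr16:20651552-20651651, plus strand): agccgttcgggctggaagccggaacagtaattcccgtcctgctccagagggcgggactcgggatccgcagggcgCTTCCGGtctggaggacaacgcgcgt
Psmd6 (chr14:14120946-14121045, minus strand): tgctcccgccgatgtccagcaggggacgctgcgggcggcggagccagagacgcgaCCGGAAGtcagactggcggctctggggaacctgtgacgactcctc
Psmd11 (chr11:80428515-80428614, plus strand): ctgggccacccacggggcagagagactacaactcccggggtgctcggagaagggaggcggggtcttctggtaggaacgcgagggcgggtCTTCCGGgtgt
Psmd12 (chr11:107479428-107479527, plus strand): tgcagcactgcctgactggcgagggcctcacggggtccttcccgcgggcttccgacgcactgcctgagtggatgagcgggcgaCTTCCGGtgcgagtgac

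The next 3 hold TGACNNNGC, shown because Nfe2l1 changed in these cultures, and the last is Psmb3, the member called higher, which holds CCAAT at -85 and -43. In Psmd9 the first match in capitals is CACGTG, and no matches overlap in the sequences printed. A match is a run of letters and was not tested as a binding site.
Psmb5 (chr14:54617996-54618095, minus strand): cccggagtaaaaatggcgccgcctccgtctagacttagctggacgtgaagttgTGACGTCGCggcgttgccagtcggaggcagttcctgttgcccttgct
Psmb6 (chr11:70525257-70525356, plus strand): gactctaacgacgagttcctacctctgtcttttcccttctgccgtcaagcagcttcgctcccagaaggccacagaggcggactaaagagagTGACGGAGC
Psmd9 (chr5:123228090-123228189, plus strand): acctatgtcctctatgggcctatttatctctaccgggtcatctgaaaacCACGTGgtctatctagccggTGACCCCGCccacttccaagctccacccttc
Psmb3 (chr11:97703334-97703433, plus strand): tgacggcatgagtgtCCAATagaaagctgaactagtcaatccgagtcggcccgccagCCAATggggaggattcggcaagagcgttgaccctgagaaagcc

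The alpha ring gates the core and is the docking surface of the cap. Of its 7 genes, Psma1, Psma2 and Psma4 fell and 4 did not pass, with a median change of -0.17. Psma4 lay between 10.87 and 11.75 (median 11.21) in untreated cultures and between 10.63 and 11.29 (median 10.995) after ADR. It was lower in 12 of 14 lymphomas, by most in 403 (-0.70), and only 2949 and 5043 stood slightly higher. Its mean change was -0.30 ± 0.07 (SE, n = 14; limma adjusted p = 0.00288), a ratio of 0.815. Psma1 ranged from 11.13 to 11.61 (median 11.39) before and from 10.75 to 11.32 (median 11.13) after treatment, lower in 11 of 14, with a change of -0.24 ± 0.07 (limma adjusted p = 0.0106). Its most variable probe set, at a mean of 3.04 near the low end of the scale, read 0.06 (limma adjusted p = 0.776). Psma2 ranged from 11.60 to 12.08 (median 11.87) and from 11.29 to 11.86 (median 11.73); its change of -0.16 ± 0.06 was close to the threshold (limma adjusted p = 0.0477), although 12 of 14 lymphomas were lower. That call was lost in 12 of the 14 fits that left out 1 lymphoma. The other alpha genes had changes of -0.02 ± 0.06 (Psma3), -0.17 ± 0.07 (Psma5), 0.05 ± 0.06 (Psma6) and -0.18 ± 0.09 (Psma7), with limma adjusted p-values from 0.0822 to 0.883. A further bright probe set read -0.26 ± 0.07 for Psma5, 0.06 ± 0.07 for Psma6 and -0.27 ± 0.11 for Psma7.

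The proteolytic sites of the core sit on 3 beta subunits. Psmb5 carries the chymotrypsin-like site, the main target of proteasome inhibitors; Psmb6 carries the caspase-like site and Psmb7 the trypsin-like site. Psmb7 fell, and the other 2 did not pass the test. Psmb7 lay between 10.64 and 11.78 (median 11.30) in untreated cultures and between 10.80 and 11.41 (median 11.12) after ADR, lower in 12 of 14 lymphomas. Its change was -0.23 ± 0.06 (limma adjusted p = 0.00904). Psmb5 changed by -0.02 ± 0.08 (interval -0.18 to 0.14), higher in 7 lymphomas and lower in 7. Its values drew together: they spanned 9.98 to 11.24 before and 10.39 to 10.86 after ADR. Psmb6 changed by 0.07 ± 0.05, higher in 9 of 14 (limma adjusted p = 0.357).

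The other 4 beta subunits build the ring without cutting. Psmb1 fell and Psmb3 rose. Psmb1 lay between 11.34 and 11.84 (median 11.68) in untreated and between 11.05 and 11.63 (median 11.44) in ADR cultures. It was lower in 13 of 14 lymphomas, the exception being 1570 at 0.03, and its change was -0.21 ± 0.05 (limma adjusted p = 0.00483). Psmb3 lay between 10.38 and 11.03 (median 10.81) before and between 10.47 and 11.40 (median 10.96) after ADR, higher in 12 of 14 lymphomas. Its rise of 0.16 ± 0.06 (limma adjusted p = 0.0411) was lost in 8 of the 14 fits that left out 1 lymphoma, namely without 1467, 1570, 2949, 403, 5043, 6054, 7050 or 9583. A further probe set of Psmb3 read -0.03 ± 0.08. Psmb2 and Psmb4 had changes of -0.12 ± 0.07 and -0.11 ± 0.06, which did not pass.

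The 6 ATPases Psmc1 to Psmc6 form the motor ring of the cap. Psmc6 fell and 5 did not pass, with a median change of 0.01 over the ring. Psmc6 ranged from 10.05 to 10.85 (median 10.40) in untreated and from 9.68 to 10.67 (median 10.14) in ADR cultures and was lower in 12 of 14 lymphomas. Its change was -0.27 ± 0.08 (limma adjusted p = 0.0153), with the lowest value in 1467 (-0.90). In that lymphoma its ring partners Psmc4 and Psmc5 stood at 1.21 and 0.68, and Psmc1, Psmc2 and Psmc3 at 0.01, 0.325 and 0.04. On the other bright probe set of Psmc4 the value there was 0.63. The change was 0.02 ± 0.09 in Psmc1, 0.10 ± 0.08 in Psmc2, -0.14 ± 0.09 in Psmc3, 0.01 ± 0.17 in Psmc4 and 0.11 ± 0.10 in Psmc5. On the probe set used, Psmc4 varied most between lymphomas, with a change from -1.68 in 2581 to 1.21 in 1467. Its SD there was 0.67 over untreated and 0.58 over ADR cultures. On its other bright probe set the change ran from -0.56 in 2581 to 0.68 in 5043. The ADR values of that probe set spanned only 9.31 to 9.56, so the spread after ADR depended on the probe set.

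The base also holds 3 subunits without ATPase activity, and none of them passed limma's test (1 higher at an unadjusted p under 0.05). Psmd1 and Psmd2 are large scaffolds, and Psmd2 docks the shuttles that bring substrates; Psmd4 is a ubiquitin receptor. Their changes were 0.06 ± 0.08, 0.16 ± 0.07 and 0.08 ± 0.07 in that order. Psmd2 was higher in 10 of 14 lymphomas (limma adjusted p = 0.120), by most in 5560 (0.70) and least in 6054 (-0.18).

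Of the 8 lid genes, Psmd3 and Psmd13, both structural subunits, fell and 6 did not pass, with a median change of -0.18. Psmd13 ranged from 8.63 to 9.42 (median 9.24) before and from 8.26 to 9.15 (median 8.93) after ADR. It was lower in 12 of 14 lymphomas, and its change of -0.33 ± 0.09 (limma adjusted p = 0.0112) was the lowest among the 34 members. Psmd3 ranged from 9.04 to 9.98 (median 9.46) and from 8.90 to 9.54 (median 9.16), lower in 12 of 14 lymphomas, with a change of -0.26 ± 0.07 (limma adjusted p = 0.00878). Psmd14 is the metalloprotease that cuts ubiquitin chains from the substrate, and Psmd7 is its inactive partner. Psmd14 lay between 10.82 and 12.69 (median 11.13) in untreated and between 10.79 and 11.86 (median 11.10) in ADR cultures. Its change of -0.21 ± 0.15 did not pass (limma adjusted p = 0.345). Lymphoma 5560 went from 12.69 to 10.79, and without it the change was -0.08 (limma adjusted p = 0.633). Psmd7 was lower in 11 of 14 lymphomas, but its change of -0.28 ± 0.13 did not pass (limma adjusted p = 0.129); 1467, 2949 and 5043 stood higher by 0.41, 0.93 and 0.36. The structural subunits Psmd6, Psmd8, Psmd11 and Psmd12 changed by 0.19 ± 0.14, -0.16 ± 0.06, 0.06 ± 0.06 and -0.13 ± 0.06. Psmd8 was just outside the threshold (limma adjusted p = 0.0538).

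Psmd5, Psmd9 and Psmd10 (gankyrin, also known as an oncoprotein) are chaperones that help assemble the base and leave before the particle is complete. Psmd9 fell, from between 7.36 and 8.74 (median 8.20) to between 7.58 and 8.42 (median 7.82), lower in 13 of 14 lymphomas. Its change was -0.26 ± 0.07 (limma adjusted p = 0.00836). Psmd5 changed by 0.18 ± 0.09 and Psmd10 by 0.01 ± 0.10, and neither passed. The 8 members called lower other than Psma2 stayed past the threshold in all 14 fits that left out 1 lymphoma. With the most variable probe set, which for these is dimmer, the calls of Psmb1 (-0.05), Psmc6 (-0.18), Psmd13 (-0.20) and Psmd9 (-0.15) were lost (limma adjusted p from 0.103 to 0.776), and that of Psmd9 also without the block (limma adjusted p = 0.103).

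**Figure D2:**
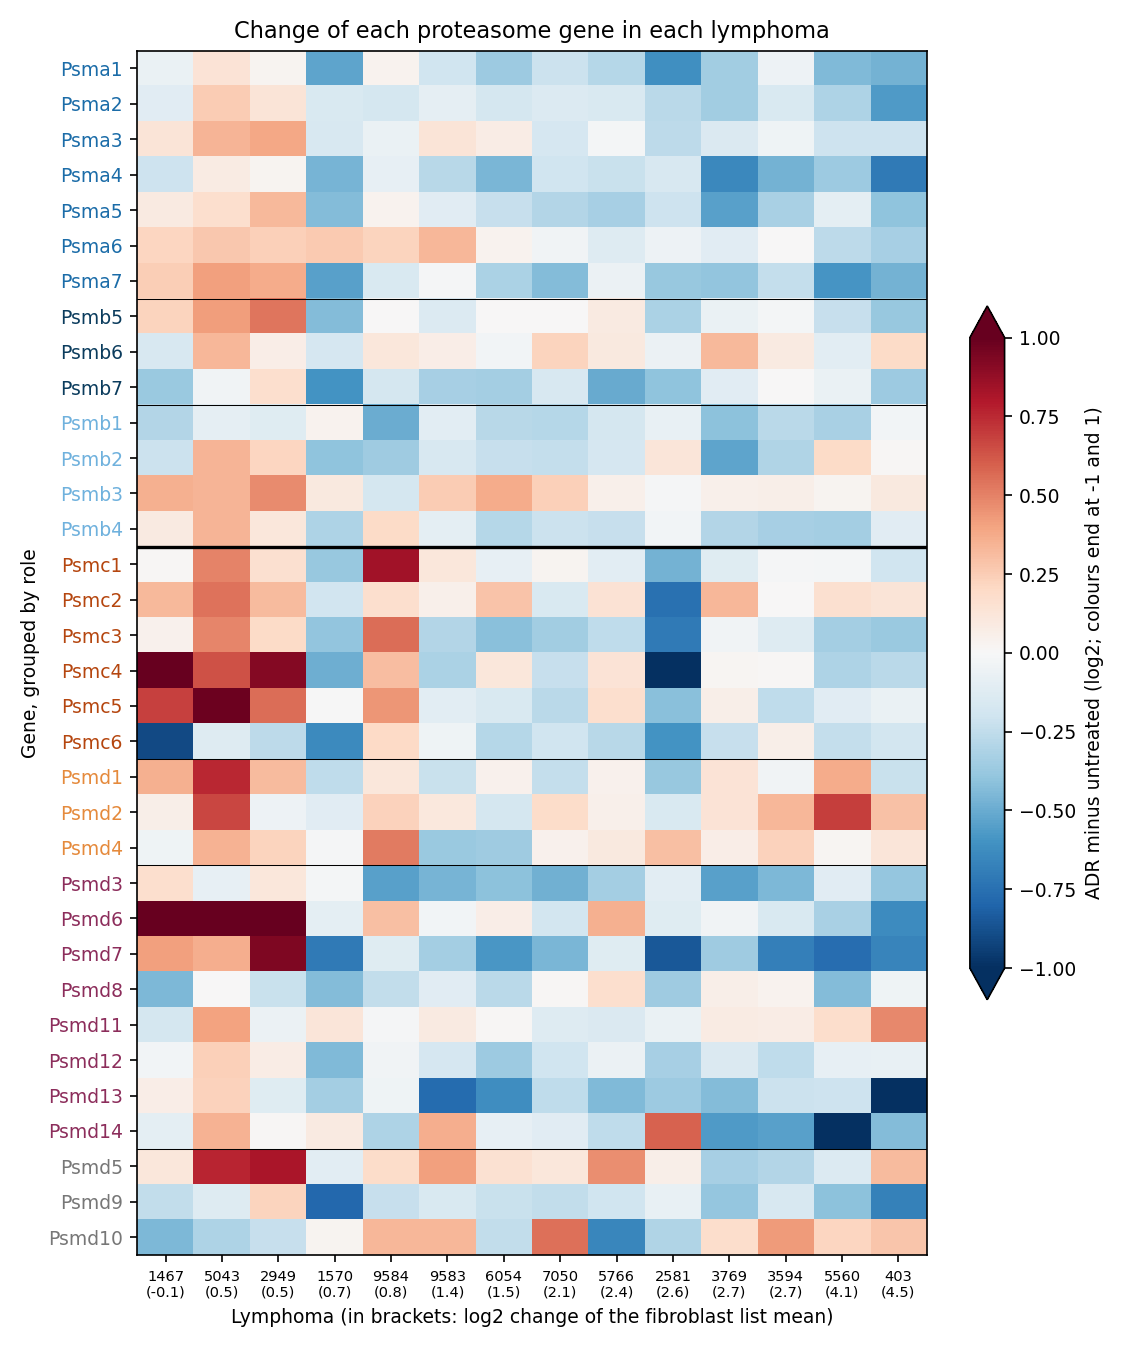
Change (log2, colour; colours end at -1 and 1) of each proteasome gene (rows, grouped by role, 20S above the thick line) in each lymphoma (columns, ordered by the change of the fibroblast list mean, given in brackets). Lymphomas 5043 and 2949 are red in most rows, and 2581 is blue in 30 of 34. Values past the ends of the colour scale are in the 19S rows Psmc4, Psmd6, Psmd13 and Psmd14.

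The 20S and 19S genes were set side by side within each lymphoma. In the core 5 of 14 genes were called lower (35.7%) and 1 higher (7.14%), with a median change of -0.14. In the cap 4 of 20 were called lower (20.0%) and none higher in limma (1 higher at an unadjusted p under 0.05), with a median of 0.01. Of all genes 13.4% were called lower and 15.3% higher, and of bright genes 25.6% and 21.6%. The shares called lower in core and cap lie on either side of that of bright genes. Averaged over genes, the core changed by -0.11 (SD 0.16 over 14 lymphomas) and was below 0 in 12 of 14. The cap changed by -0.05 (SD 0.20) and was below 0 in 10 of 14. The difference, core minus cap, was -0.05 (SD 0.09), below 0 in 11 of 14 lymphomas, and ran from -0.21 in 9584 to 0.15 in 2581. Leaving out the assembly factors gave -0.05 and 10 of 14, and taking the most variable probe set of each gene gave -0.00. The difference is given as a description, with no test.

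The lymphomas varied in how many members were higher. In 5043, 28 of 34 members were higher after ADR, with means of 0.24 for the core and 0.38 for the cap; in 2949 it was 27. In 1467 and 9584, 19 and 18 members were higher. In 2581 only 4 were, and the cap mean was -0.34. The ADR array of 2581 differs from its untreated array in the distance between the 2 probe sets of Psmc4 (0.07 against 1.18). That is a shift of 1.12, where the other pairs shifted by at most 0.585. Over all genes the partner of 2581 was the best match (r = 0.43). Whether both arrays are of 1 lymphoma was not tested further. Without 2581 the cap mean was -0.03, the core mean -0.10, their difference -0.07, and 8 members were called lower and 1 higher. In 1570, whose ADR array stood apart in RNA quality, the core mean was the lowest at -0.27. Without that lymphoma the calls of Psma2 and Psmb3 were lost, and no other member's call changed.

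**Figure D3:**
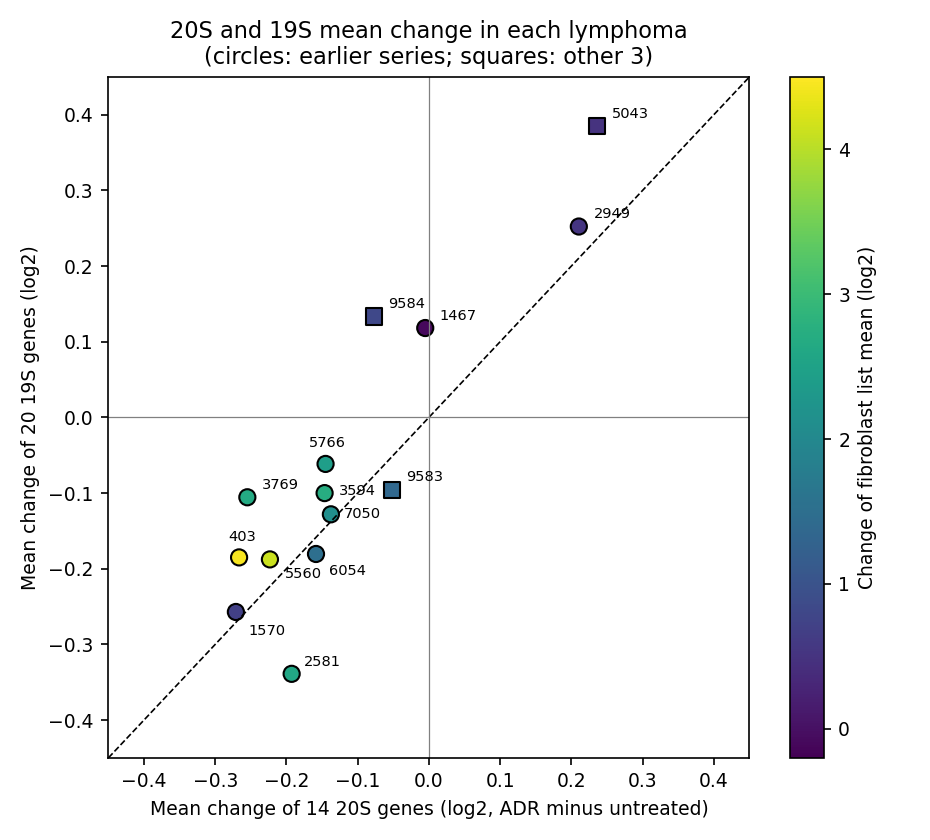
Mean change of the 14 20S genes (horizontal, log2) against the mean change of the 20 19S genes (vertical, log2), 1 point per lymphoma; colour gives the change of the fibroblast list mean, and squares mark the 3 lymphomas not described as samples of an earlier series. Lymphomas 5043 and 2949 lie top right and most others bottom left; 11 of 14 points lie above the dashed line of equal change.

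The spread of some members between lymphomas was narrower after ADR. In 9 members with a smaller SD after ADR (Psmb5, Psmc1, Psmc2, Psmc3, Psmc5, Psmd6, Psmd7, Psmd12 and Psmd14) the same 3 untreated cultures, of lymphomas 1467, 2949 and 5043, were the lowest. The 3 were picked from these same values. How many genes outside the list have them lowest was not counted, so this is no trait particular to the members. Psmd6, a lid subunit, lay at 9.20, 9.60 and 9.52 in untreated 1467, 2949 and 5043, and between 10.13 and 11.16 in the other 11. After ADR those 3 stood at 10.51, 10.72 and 10.59, inside the range of the others. On the probe set used, Psmd6 went up by 1.31, 1.12 and 1.07 there, and its SD went from 0.57 to 0.15. These are also the 3 lymphomas with the smallest change of the fibroblast list, at -0.10, 0.52 and 0.48, where the others had 0.70 to 4.45. The slope of Psmd6 on that change was -0.34 (limma adjusted p = 0.0035). It was fitted on these same values, with those 3 lymphomas at the low edge, so it restates the pattern and adds no separate support. The ATPase Psmc5 had the same 3 at the bottom before treatment, at 9.10, 9.18 and 9.04, and its SD went from 0.45 to 0.16. The SDs of Psmb5 and Psmd7 went from 0.32 to 0.13 and from 0.42 to 0.21. The SD after ADR was the smaller in 21 of 34 members (61.8%), against 41.7% of all genes and 45.7% of bright genes. It was under 0.5 of the untreated SD in Psmd6, Psmc5 and Psmb5 (8.82% of members, against 2.26% of all genes). For Psmd6 the narrowing depended on the probe set. Its values spanned 9.20 to 11.16 before and 10.12 to 10.73 after ADR on the probe set used. On its other bright probe set they spanned 8.99 to 11.19 and 9.18 to 10.64. There untreated 3594 (9.12) and 9584 (9.23) lay below 2949 (9.36), although 1467, 2949 and 5043 rose on both.

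**Figure D4:**
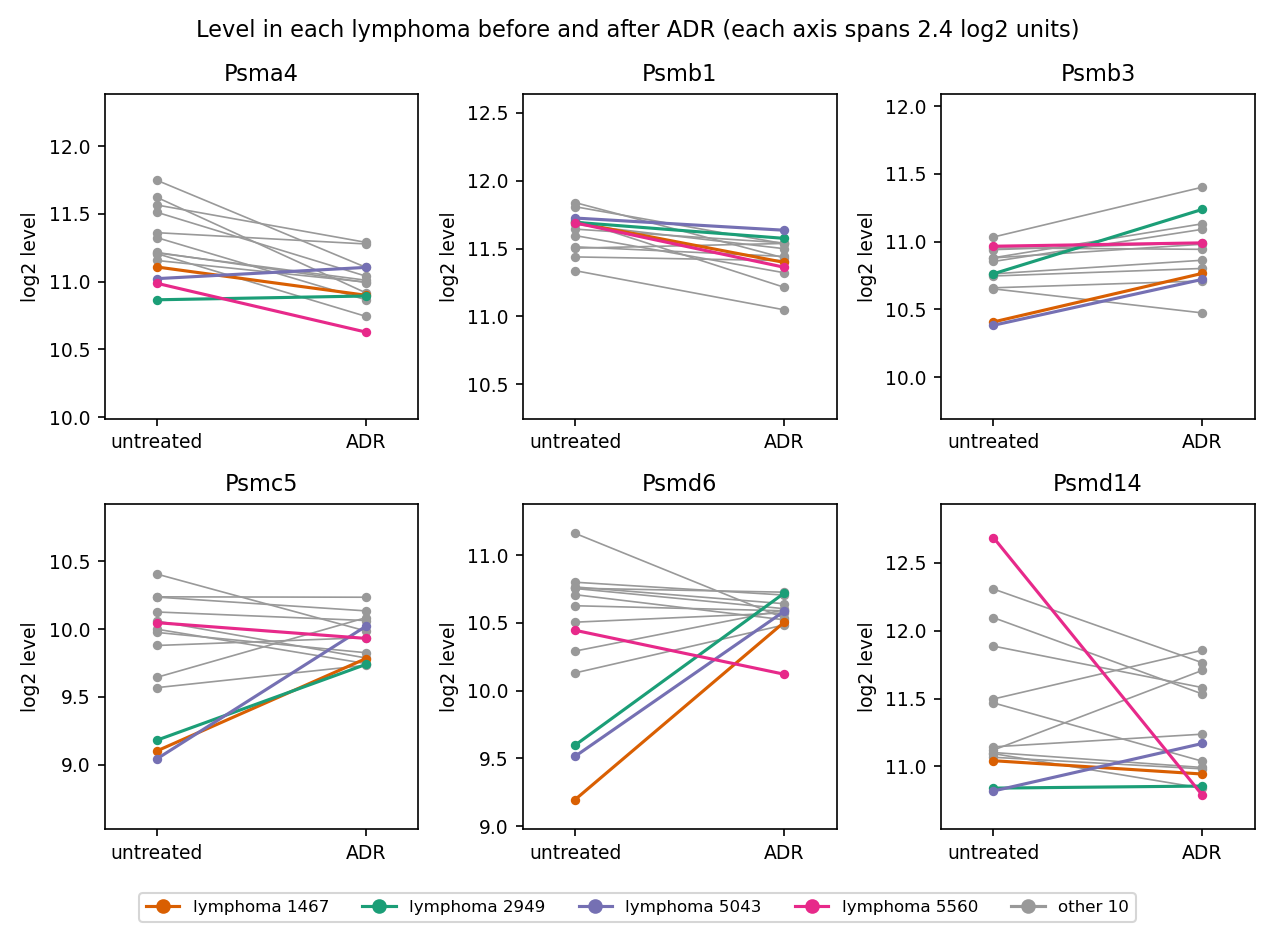
Log2 level of 6 proteasome genes in the untreated and the ADR culture of each lymphoma, joined by a line; 4 lymphomas are coloured. Psma4 and Psmb1 slope down in most lymphomas and Psmb3 up, Psmc5 and Psmd6 start low in 1467, 2949 and 5043 and end with the others, and Psmd14 drops steeply in 5560.

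**Figure D5:**
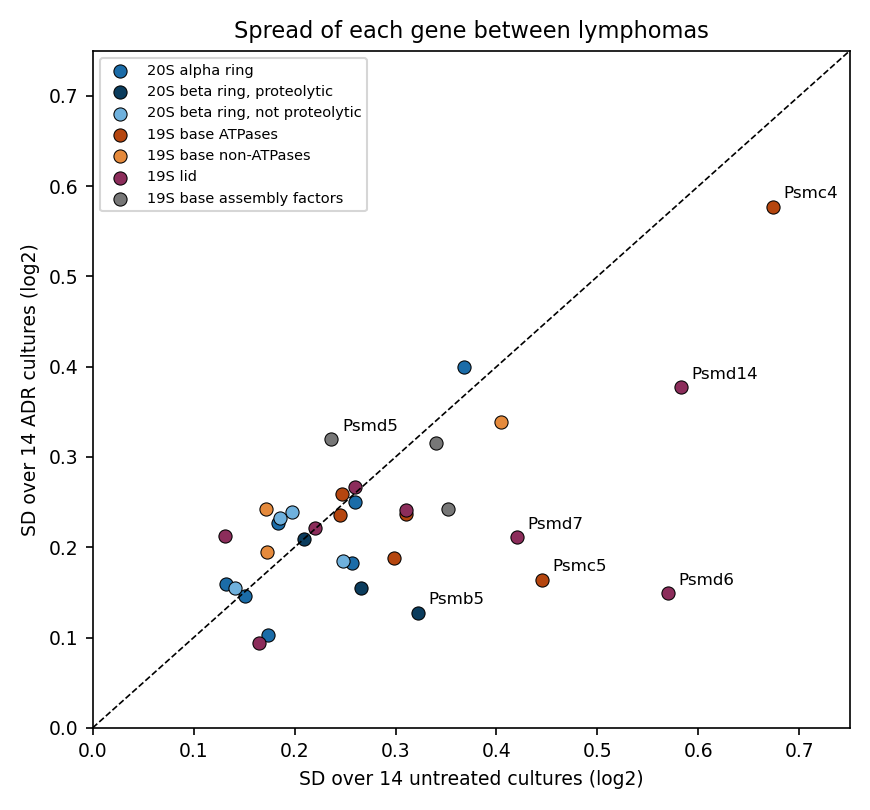
Standard deviation (log2) of each proteasome gene over 14 untreated cultures (horizontal) against that over 14 ADR cultures (vertical), coloured by role; the dashed line marks equal spread. Psmd6, Psmc5, Psmb5 and Psmd7 lie far below the line. Psmc4 has the largest spread in both groups on the probe set used, which its other bright probe set did not show after ADR.

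Changes of the members went together across lymphomas. Over the 561 pairs of members the median Pearson r of their 14 changes was 0.37, where a member and a gene outside the list had a median of 0.00. The genes outside the list include dim ones, and bright genes alone were not compared. Pairs within the core had a median of 0.48 (91 pairs), pairs within the cap 0.27 (190 pairs) and mixed pairs 0.39 (280 pairs). The pairs most alike were Psma3 with Psma7 (0.92), Psmd6 with Psmd7 (0.91) and Psma7 with Psmd6 (0.91). Psma7, Psmb5 and Psma1 followed the mean of the other 33 members most closely, at r of 0.91, 0.90 and 0.89. Psmd10, Psmb1 and Psmd11 did not follow it, at -0.35, -0.10 and -0.01. All these values share the same 28 arrays and their normalization, and 5043 and 2949, where most members were higher, carry weight in each.

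The change of the fibroblast list was entered as a covariate, since the cultures grew on fibroblasts and no sort is named. At no fibroblast change, 2 members were called higher (5.71% of all genes were) and none of 34 lower (5.01% of all genes were; 3 members lower at an unadjusted p under 0.05), with a median of 0.05. The core and cap means turned to 0.04 and 0.12. The 2 were Psmd6, at 0.83 ± 0.16 (limma adjusted p = 0.0050), and Psma6, at 0.32 ± 0.07 (limma adjusted p = 0.010). No fibroblast change lies at the low edge of the covariate. Lymphomas 1467, 5043 and 2949 had -0.10, 0.48 and 0.52, and the others 0.70 to 4.45. The values at no fibroblast change therefore depend much on those 3, where Psmd6 rose by 1.31, 1.07 and 1.12. All 10 calls of the paired fit were lost at no fibroblast change, with standard errors larger in all 34 members. Psma2 changed sign, from -0.16 to 0.04. Psma1, Psma4, Psmd3, Psmd9 and Psmd13 shrank to -0.06, -0.10, -0.12, -0.14 and -0.05. Psmb1 and Psmb7 kept their size, at -0.21 and -0.23, with wider errors, while Psmc6 stood at -0.36 and Psmb3 at 0.28, larger than in the paired fit (limma adjusted p = 0.096 and 0.065). The slope on the fibroblast change was called negative for Psma2, Psma6, Psma7, Psmc5, Psmd6 and Psmd7, 6 of 34 members (17.6%). It was called negative for 8.15% of all genes and 17.9% of bright genes, so the share of members was near that of bright genes. It was called positive for 0 members, also at an unadjusted p under 0.05, where 8.89% of all genes were. Whether cells of the feeder contributed to these values was not tested.

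The descriptions mark 11 of the lymphomas as samples of an earlier series. No member differed in its change between those 11 and the other 3 (9583, 9584 and 5043) after adjustment in limma, where 1 gene of all did (0.0055%); 4 members had an unadjusted p under 0.05. The difference was positive for 31 of 34 members (91.2%), against 50.1% of all genes and 62.5% of bright genes. The members change together across lymphomas, so these signs are not independent. Among the 3, the mean change of the 34 members was 0.32 in 5043, -0.08 in 9583 and 0.05 in 9584. In Psmc1 the change was -0.11 in the 11 and 0.48 in the 3 (limma adjusted p of the difference = 0.864). Its values in the 3 were 0.49 in 5043, 0.12 in 9583 and 0.84 in 9584. Within the 11 alone, limma called 10 members lower (12.4% of all genes were) and 0 higher (13.9% of all genes were; 1 member at an unadjusted p under 0.05).

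Of 36 measured genes around the proteasome, 5 were called higher (13.9%) and 6 lower (16.7%). These shares were near those of all genes (15.3% and 13.4%) and below those of bright genes (21.6% and 25.6%). Nfe2l1, the factor that raises subunit genes when proteasome activity falls, lay between 7.53 and 8.90 (median 7.84) in untreated and between 8.002 and 9.544 (median 8.66) in ADR cultures. It rose in 13 of 14 lymphomas, by 0.73 ± 0.12 (limma adjusted p = 3.38e-04), with 1467 at -0.19. Its relative Nfe2l2, which drives the antioxidant response, rose by 0.85 ± 0.13 and their partner Mafg by 0.64 ± 0.08, each in 14 of 14 lymphomas. The change of Nfe2l1 was largest in 403 (1.91), where the fibroblast list rose most and where 9 of the 34 members were higher. At no fibroblast change Nfe2l1 was 0.28 ± 0.17, no longer past the threshold, while Nfe2l2 was 0.87 ± 0.23.

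The inducible catalytic subunits of the immunoproteasome, which replace Psmb5, Psmb6 and Psmb7 under interferon gamma, did not rise. Psmb8 fell by 0.30 on the log2 scale (SE 0.08, limma adjusted p = 0.0109), lower in 13 of 14 lymphomas, and Psmb9 fell by 0.38 (SE 0.12, limma adjusted p = 0.0316), lower in 9 of 14. Psmb10 changed by -0.20 ± 0.11 and did not pass. Of 5 core assembly chaperones, Psmg1 and Psmg2, which pair up to build the alpha ring, fell by 0.61 and 0.63 (SE 0.16 and 0.13). Pomp, which helps the beta rings mature, changed by -0.02 ± 0.05. Uchl5, a deubiquitinase bound to the cap, fell by 0.73 (SE 0.15, limma adjusted p = 0.00173), lower in 12 of 14 lymphomas. At no fibroblast change these calls ended: Psmb8 stood at -0.01, Psmb9 at -0.30, Psmg1 at 0.06, Psmg2 at -0.31 and Uchl5 at -0.12 (limma adjusted p from 0.406 to 0.971). Vcp, the unfoldase that extracts ubiquitinated proteins, rose by 0.25 ± 0.06, higher in 12 of 14. The shuttle Ubqln2 rose by 0.40 ± 0.12, while its relative Ubqln1 fell by 0.26 (SE 0.06); at no fibroblast change Vcp was still called, at 0.44, and Ubqln2 and Ubqln1 were not, at 0.29 and -0.27. The small lid subunit Sem1 changed by 0.05 ± 0.05, and Psme1, part of an alternative cap, by -0.16 ± 0.07, and neither passed. None of the 4 genes of alternative caps and the proteasome inhibitor passed limma's test (2 at an unadjusted p under 0.05). Adrm1 and Psme2 were not analysed here.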

How the data were processed

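The authors deposited log2 expression values of 45101 probe sets on 28 arrays, and per the submitters' processing notes they were made with RMA and Partek 6.5. RMA subtracts background, quantile-normalizes the probes and combines those of each set. The genome build behind the probe sets is not given in the sources used here. Of the probe sets, 34945 had 1 gene in the array annotation and were used, with the brightest taken per gene. Promoter coordinates are those of RefSeq on GRCm38.p6.

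Changes were fitted with limma 3.58.1 in R 4.3.3 (lmFit, eBayes) with lymphoma as a block. Adjustment was by Benjamini-Hochberg across 18193 genes, at 0.05, and standard errors are moderated. Pairing comes from the lymphoma named in the labels: deviations of the arrays of 1 lymphoma correlated at 0.27 to 0.61 (median 0.48; different lymphomas -0.08), and the partner was the best match in 12 of 14, not in 2949 and 6054. In the covariate fit each gene's 14 changes were regressed on those of the fibroblast marker mean, and the intercept gives the value at no fibroblast change. The fits were run on simulated data, and the outcomes are not given here. The planted slopes and set differences were larger than those of any member. Those runs therefore cannot show whether slopes and set differences of the members' size would be found. Core against cap, correlations, spreads and motifs are descriptions. Figures were drawn with matplotlib 3.10.9. The number of arrays limits the precision.

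The members, the gene lists and the tests were chosen with earlier results of these data known. Named genes are all members, in each pathway list up to 3 called genes with the largest change, 9 genes in any case (among them Nfe2l1, Psmb8 and Pomp) and the 3 most alike member pairs. Alternatives were other blocks, probe sets, filters and scalings, omitted lymphomas and the fibroblast covariate.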

Additional observations from a re-analysis of the deposited data

How the results depend on the processing

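Without the replicate block 0 members were called higher and 7 lower, and all genes gave 1933 higher and 1723 lower. With a random replicate block 0 members were called higher and 10 lower. No member was called higher either with the mean of all probe sets, with arrays centred on the median, with quantile normalization, without lymphoma 1570, without 403 and 5560, or in the 11 lymphomas of an earlier series. The number called lower was 3 with the most variable probe set and 15 with centred arrays, where 4207 genes were lower; that centring shifts every gene. In the value at no fibroblast change, 2 members were higher and 0 lower, with 1039 genes higher and 911 lower and standard errors 1.65 times as large at the median. Of the 10 called members, 7 kept their call without the block, 4 with the most variable probe set, 6 with the mean of all probe sets, 9 with centred arrays and 0 at no fibroblast change. A filter at a mean of 6 changed no member's call. Leaving out 1 lymphoma at a time gave 0 to 1 members higher and 8 to 11 lower, 2419 to 2862 genes higher and 2082 to 2572 lower. The core mean then ran from -0.13 to -0.09, the cap mean from -0.09 to -0.03 and their difference from -0.07 to -0.04. The change of sign was to 0.056 for Psma1 (most variable probe set, at a mean of 3.04) and, at no fibroblast change, to 0.045 for Psma2 and 0.062 for Psmg1, whose cause was not tested. Of the 24 uncalled members, 10 changed sign at no fibroblast change and 9 with centred arrays. Signal over background limits dim genes on arrays, and the probe sets used for members lie at means from 8.04 to 11.86.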

Other observations

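The 2 probe sets of Psmc4 did not keep a constant distance. In 21 arrays the probe set used was higher than the other by 0.90 to 1.66 on the log2 scale. In the other 7 the distance was -0.32 to 0.61: both arrays of lymphomas 3594, 3769 and 9584, and the ADR array of 2581, whose untreated array stood at 1.18. In those same 7 arrays the 2 probe sets of Psmd6 were 0.73 to 1.64 apart, against -0.03 to 0.94 in the other 21. In lymphoma 2581 the change of Psmc4 was -1.68 on the probe set used and -0.56 on the other, and without that lymphoma the mean change of Psmc4 was 0.13. The cause was not tested.

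Of the 12 members with several probe sets at a mean of at least 8, the 14 further probe sets gave the sign of the one used in 9 cases. Psmd11 read 0.06 on the probe set used and -0.08, -0.00 and 0.25 on the other 3. Psmd4 read 0.08 and -0.04, and Psmc4 0.01 and -0.10.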
